A study of Mus musculus with 26 samples.

Results

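The response to differentiation medium was followed in C2C12 mouse myoblasts that carry a stably integrated retroviral vector. The comparison takes the 4 libraries at 24 h (2 of Ctrl vector and 2 of SMYD3 CL5) against the 4 libraries at 0 h from the same lines, chosen by their sample labels alone, so it uses 8 of the 26 RNA-Seq libraries of the series. Ctrl vector cells carry the empty pREV vector and SMYD3 CL5 cells carry the same vector with an HA-Flag-tagged SMYD3, a lysine methyltransferase. SMYD3 CL5 is 1 clone, and the control cells were sub-cloned as well, so the line and the clone cannot be told apart. At 0 h both lines were undifferentiated in growth medium with fetal calf serum, and at 24 h they had spent that time in differentiation medium with little horse serum. RNA of all 8 libraries was extracted with TRIzol. The same time step in 6 libraries of siCtrl cells, C2C12 without a vector that were transfected with a control siRNA, is set beside it. At each time 1 siCtrl library was extracted with TRIzol and 2 with the NucleoSpin kit. In this series the extraction method goes with the cell passage, so method and passage cannot be told apart there. The study's methods call the replicates biological, without saying how the cultures were kept apart, and a p-value measures the spread between these libraries.

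Myoblasts that lose growth factors leave the cell cycle, switch on myogenin and its targets, and fuse into multinucleated myotubes that build sarcomeres. MyoD and its relatives bind short DNA elements called E-boxes together with E proteins. The Id proteins take E proteins away from them, and their loss is a known early step of the program. Myogenin then works with the MEF2 factors on the genes of the contractile apparatus, of calcium release and of the neuromuscular synapse.

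Library totals ran from 21124675 to 67853386 counts in the 8 libraries (median 41890109) and from 15333299 to 60398170 in siCtrl. Levels are CPM, counts scaled to library size with TMM factors, and a change is the log2 fold change at 24 h against 0 h, given with its standard error (SE). Smyd3 itself (chromosome 1, 178951960 to 179518041, minus strand) stood at 18.1 and 15.6 CPM at 0 h and 16.2 and 17.6 at 24 h in Ctrl vector, and at 16.4, 26.9, 23.5 and 20.5 in SMYD3 CL5. The lines therefore overlap in Smyd3, and since the species of the transgene is not stated in the sources used here, this neither checks nor contradicts the label. The study itself checked the tagged protein in its clones by western blot and immunofluorescence against HA and FLAG. The 7 myoblast markers were all among the tested genes, with summed levels of 612 to 1067 CPM in Ctrl vector and 1007 to 1835 in SMYD3 CL5.

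A library stood apart. The SMYD3 CL5 replicates at 0 h correlated at 0.951 across genes with a root mean square difference of 1.12 on the log2 scale, against 0.42, 0.49 and 0.7 in the other 3 groups. The first principal component held 51.4% of the variance and separated the lines, and the second, with 22.3%, separated the SMYD3 CL5 0 h replicate 2 from the other libraries. That library was higher than replicate 1 in 35 of 37 DNA replication genes (median 0.93 on the log2 scale) and 24 of 31 thin filament and Z disc genes (median 0.83), while all genes had a median of -0.06. Myog, the gene of myogenin, was at 81.2 CPM in replicate 2 and 15.5 in replicate 1, but over the 14 myogenic transcription factors the median was -0.58 and 3 were higher in replicate 2. List medians and some of the calls that moved are therefore also given from the 7 libraries without it, an alternative chosen after the data were seen. That fit leaves 1 SMYD3 CL5 library at 0 h, which is assumed to vary like the other groups. Since replicate 2 was high in Myog and DNA replication genes, leaving it out must enlarge the rise of the one and shrink the fall of the others. Leaving out replicate 1 instead moved some list medians the opposite way. The muscle energy median was then 0.04, against 0.29 in the 8 libraries and 0.86 without replicate 2. For myogenic transcription factors these were 0.52, 0.28 and 0.09, while for matrix genes they were 0.44, 0.29 and 0.30. The values from the 7 libraries are thus an alternative and not a correction.

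**Figure D1:**
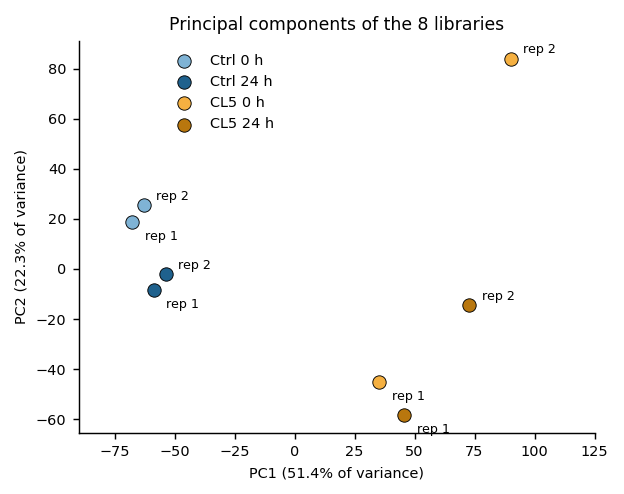
Principal components of the 8 vector-line libraries, from log2 CPM over the tested genes, with PC1 (51.4% of the variance) on the x axis and PC2 (22.3%) on the y axis. Points are libraries, coloured by line and time. SMYD3 CL5 0 h replicate 2 lies at 84 on PC2, and no other library lies above 25.4.

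The central comparison asked which genes changed between 0 h and 24 h in both lines, with the line as covariate. At the adjusted p under 0.01 that the study used, 2 of 17835 genes (0.0112%) passed, both of them falls: Id1 and Krt13. At an adjusted p under 0.05, 78 genes rose (0.437%) and 34 fell (0.191%), and 2242 genes had an unadjusted p under 0.05. Without the SMYD3 CL5 0 h replicate 2, 76 genes rose (0.403%) and 28 fell (0.148%) under 0.01. In each line separately the 24 h libraries of all 112 genes lay beyond its 0 h libraries, which 7.17% of all tested genes did upwards and 6% downwards. Since the genes were chosen on these same libraries, this separation follows largely from the choice and lends the calls no support. All 112 stayed under 0.05 in the 7 libraries, and 48 of the rises and 22 of the falls were there under 0.01. Without SMYD3 CL5 0 h replicate 1 instead, 110 stayed. Few calls stayed when 1 of the other 6 libraries was left out: of the 112, 4 and 1 stayed without Ctrl vector 0 h replicates 1 and 2, 0 and 1 without those at 24 h, and 17 and 6 without those of SMYD3 CL5 at 24 h, and neither call at 0.01 stayed. A gene is said to have risen or fallen at an adjusted p under 0.05 in the fit of 8 libraries unless 0.01 or the 7 libraries are named. Counts of list members that follow stand beside the shares over all tested genes given above. In the 8 libraries these are 0.437% for rises and 0.191% for falls. Genes named at 0.05 or from the 7 libraries lie outside the naming rule and were chosen after their values were seen.

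Of the genes that fell, 3 encode Id proteins. Id1 (chromosome 2, 152736251 to 152737410, plus strand) was at 130.5 and 77.7 CPM at 0 h and 20.5 and 17.5 at 24 h in Ctrl vector, and at 104, 138, 22.7 and 18.7 in SMYD3 CL5. Neither line's times overlapped, and the lines reached nearly the same level. Id1 fell by 2.51 on the log2 scale (SE 0.21, adjusted p = 0.00829), and by 2.42 in the 7 libraries (adjusted p = 0.0008). Id3 went from 206 and 135 CPM to 47.4 and 32.9 in Ctrl vector, and from 232 and 227 to 59.4 and 36.2 in SMYD3 CL5. Id2 went from 65.9 and 41.7 to 10.5 and 7.83 CPM, and from 44.3 and 39 to 11 and 17.6. Both fell, Id3 by 2.18 (SE 0.23, adjusted p = 0.0129) and Id2 by 2.06 (SE 0.29, adjusted p = 0.0269).

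Those were the 3 of 13 tested inhibitors of myogenic factors that fell, none rose, and the list had a median of -0.12 against 0.00 for all genes tested. In the 7 libraries the median was 0.02, with the same 3 falls under 0.01. The remaining inhibitors included Snai2, a zinc finger repressor, at 42.8, 42.7, 55.6, 58.5 CPM in Ctrl vector and 51.8, 18.5, 39.9, 33.5 in SMYD3 CL5 (adjusted p = 0.82). In siCtrl 6 of the 13 rose and 5 fell under 0.01, where 14.6% of all genes rose and 14.8% fell. Smad6 and Smad7, inhibitors in BMP and TGF-beta signalling that were chosen after their values were seen, fell too, by 1.39 (adjusted p = 0.0271) and 0.96 (adjusted p = 0.0328).

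Krt13 (chromosome 11, 100117327 to 100121566, minus strand), an epithelial keratin, was the other gene past 0.01. It stood at 13.8 and 13.5 CPM at 0 h and 2.84 and 3.42 at 24 h in Ctrl vector, and at 10.6, 12.5, 1.75 and 2.48 in SMYD3 CL5. It fell by 2.30 on the log2 scale (SE 0.20, adjusted p = 0.00829), and by 2.23 without the SMYD3 CL5 0 h replicate 2 (adjusted p = 0.00119). In siCtrl its level was higher, 43.8, 34.4 and 36.7 CPM at 0 h and 21.6, 23.4 and 21.2 at 24 h, a fall by 0.76 (adjusted p = 0.00168). Among the other falls were Lgr6, an R-spondin receptor, by 2.37 (adjusted p = 0.039), Fmod, a small matrix proteoglycan, by 1.65 (adjusted p = 0.032), and Foxc2, a forkhead factor, by 1.56 (adjusted p = 0.0227).

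Of the 14 myogenic transcription factors none passed in the 8 libraries, and the list had a median change of 0.28 (0.086 in the 7 libraries). Myog (chromosome 1, 134289989 to 134292548, plus strand) was at 0.266 and 0.499 CPM at 0 h and 6.90 and 6.79 at 24 h in Ctrl vector, and at 15.5 and 81.2 at 0 h and 119 and 77.3 at 24 h in SMYD3 CL5. The times did not overlap in Ctrl vector but did in SMYD3 CL5, through replicate 2 at 0 h. The change was 2.29 (SE 0.72, adjusted p = 0.215) in the 8 libraries, and in the 7, which lack the library with the highest Myog at 0 h, it rose by 3.24 (SE 0.32, adjusted p = 0.00267). SMYD3 CL5 cells at 0 h held more Myog than Ctrl vector cells at 24 h in every library.

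The other factors did not pass in either fit. Myod1, the MyoD gene, was at 33 and 21.3 CPM at 0 h and 26 and 14.1 at 24 h in Ctrl vector, and at 107, 89.3, 58.9 and 54.7 in SMYD3 CL5 (change -0.62, SE 0.23, adjusted p = 0.298). Mef2a and Mef2d, MADS-box partners of myogenin, changed by 0.80 (adjusted p = 0.333) and 0.46 (adjusted p = 0.251). Changes of 9 more ran from -0.10 in Srf to 0.75 in Myf6, with Mef2c, Six4, Eya1, Tead4, Tcf12, Pax7 and Myf5 between. Myf6 stayed at or under 0.542 CPM in all 8 libraries. In siCtrl 6 of these 14 genes rose and 1 fell under 0.01, where 14.6% of all genes rose and 14.8% fell.

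Of the 22 lists, that of the thick filament and M band had the largest median change. Over its 19 tested members it was 2.09, with 3 rises and no fall in the 8 libraries and 5 rises under 0.01 in the 7, where the median was 2.50. Myh3 (chromosome 11, 67078300 to 67102291, plus strand), the embryonic myosin heavy chain, was at 0.0885 and 0.499 CPM at 0 h and 3.64 and 6.52 at 24 h in Ctrl vector, and at 3.31, 10.8, 152 and 104 in SMYD3 CL5. Every 24 h library was above its own line's 0 h libraries, but Ctrl vector at 24 h overlapped with SMYD3 CL5 at 0 h. Myh3 rose by 4.12 (SE 0.49, adjusted p = 0.0193), and by 4.77 in the 7 libraries (adjusted p = 0.00267).

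Myom2, an M band linker of that list, went from 2.39 and 3.20 to 14.1 and 17.3 CPM in Ctrl vector and from 15.6 and 39 to 88.6 and 111 in SMYD3 CL5, a rise by 2.16 (SE 0.29, adjusted p = 0.0266). Mylpf, the fast regulatory light chain, did not pass in the 8 libraries (2.59, SE 0.54, adjusted p = 0.0867). Its levels were 1.06 and 1.79 CPM at 0 h and 15.2 and 19 at 24 h in Ctrl vector, and 51.4, 231, 396 and 554 in SMYD3 CL5, where the 0 h libraries lay far apart. In the 7 libraries it rose by 3.37 (SE 0.22, adjusted p = 0.000281). Myl1, the essential light chain, followed it, with 2.66 (adjusted p = 0.11) in the 8 libraries and a rise by 3.75 (adjusted p = 0.00688) in the 7.

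The 31 tested thin filament and Z disc genes had a median change of 1.13, with 3 rises in the 8 libraries and 8 under 0.01 in the 7 (median 1.35). The 3 were Klhl40, Klhl41 and Xirp2. Klhl40 and Klhl41 encode kelch proteins that keep thin filament proteins stable. Klhl41 was at 0.502 and 0.839 CPM at 0 h and 1.70 and 2.25 at 24 h in Ctrl vector, and at 12.9, 12.3, 41.5 and 50 in SMYD3 CL5, with even replicates at 0 h. It rose by 1.72 (SE 0.21, adjusted p = 0.0193), Klhl40 by 2.81 (SE 0.39, adjusted p = 0.0269) and Xirp2, an actin-binding protein of the intercellular junction, by 1.83 (SE 0.24, adjusted p = 0.0244). The skeletal actin Acta1 was at 1.56, 3.04, 12.2 and 14.2 CPM in Ctrl vector, and at 38.6, 249, 469 and 559 in SMYD3 CL5. Its change of 2.15 (adjusted p = 0.1137) became a rise by 3.01 (adjusted p = 0.00299) in the 7 libraries. The best expressed members per kilobase of exon, Tpm1, Des and Tpm2, changed by 0.06, 0.56 and 0.20, with adjusted p from 0.473 to 0.95. Where members of Ctrl vector lay at 3 counts or fewer at 0 h, their fold is a lower bound, and with them at that bound the Ctrl vector medians were 1.88 for the thick filament list (2.01 as fitted) and 0.74 for the thin filament list (0.94 as fitted).

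**Figure D2:**
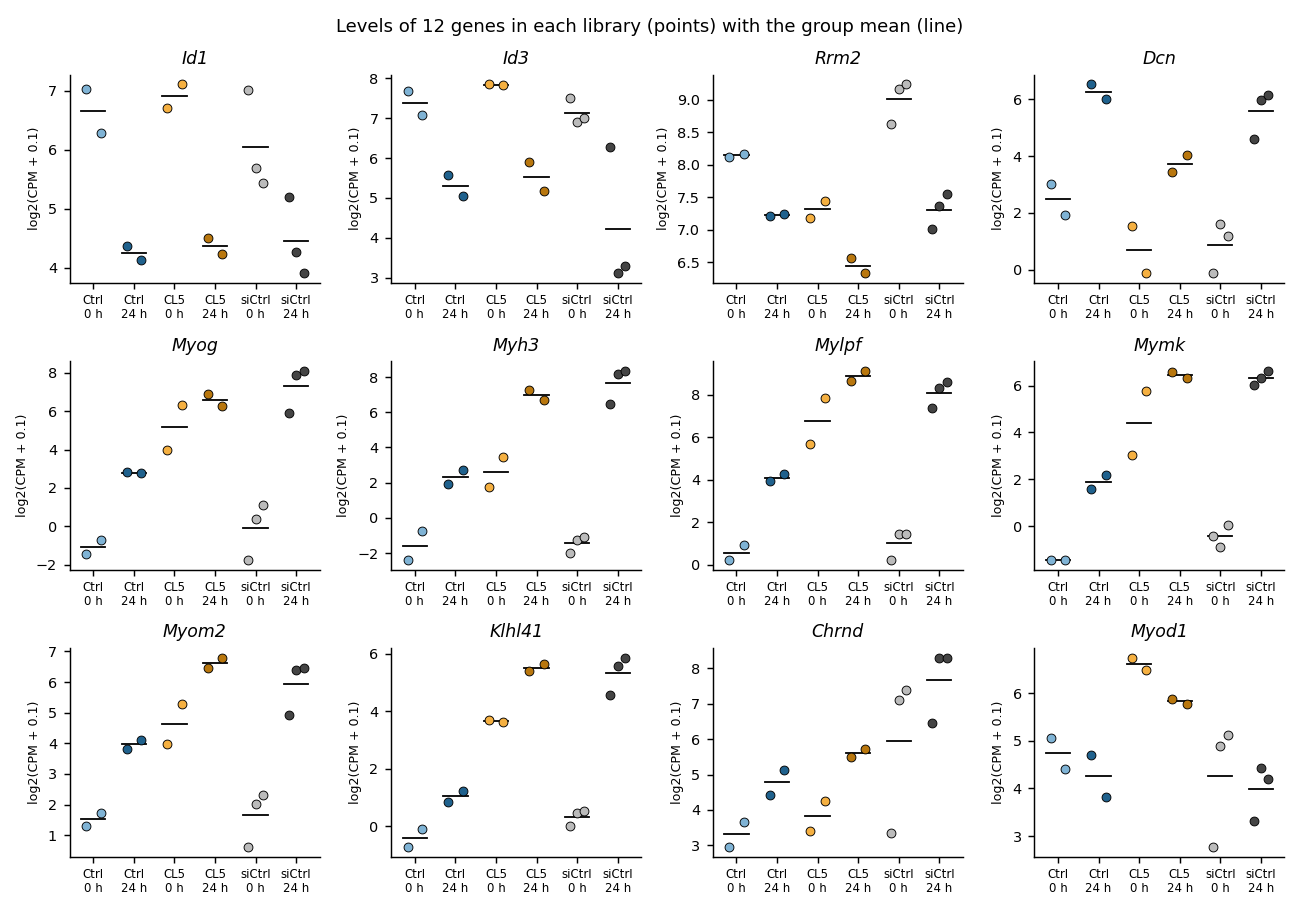
Levels of 12 genes as log2(CPM + 0.1) on each y axis, by group on the x axis, for Ctrl vector, SMYD3 CL5 and siCtrl at 0 h and 24 h. Points are libraries and lines are group means of the log2 values. Id1, Id3 and Rrm2 are lower at 24 h in both lines without overlap, and for Myog, Mylpf and Mymk the SMYD3 CL5 0 h libraries lie above Ctrl vector at 24 h.

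The fusion list again turned on the library that stood apart. None of 17 tested members of the fusion list passed in the 8 libraries (median 0.28, and 0.32 in the 7), and 2 rose under 0.01 in the 7, Mymk and Mymx, the membrane proteins myomaker and myomixer that merge myoblasts. Mymk was at 0.266 and 0.272 CPM at 0 h and 2.90 and 4.51 at 24 h in Ctrl vector, and at 8.08, 54.4, 95.2 and 80.9 in SMYD3 CL5. It changed by 2.35 (SE 0.64, adjusted p = 0.157) in the 8 libraries and rose by 3.55 (SE 0.21, adjusted p = 0.000281) in the 7. Mymx was at 0.147, 0.159, 1.58 and 1.78 CPM in Ctrl vector and at 1.40, 15.9, 27.4 and 36.6 in SMYD3 CL5, and rose by 4.10 in the 7 libraries (adjusted p = 0.000561), against 2.42 (adjusted p = 0.164) in the 8.

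In the excitation-contraction list of 20 tested genes none passed in the 8 libraries, with a median change of 0.80 (0.97 in the 7). Of the best expressed members, Cacng1, a calcium channel subunit, changed by 0.24 (adjusted p = 0.806), and Atp2a2, the slow calcium pump, by 0.07 (adjusted p = 0.913). Among 11 tested acetylcholine receptor and postsynapse genes the median was 0.72 (0.78 in the 7) and 1 rose, Chrnd, the delta subunit of the receptor. Chrnd was at 7.61 and 12.6 CPM at 0 h and 21.4 and 35 at 24 h in Ctrl vector, and at 10.6, 18.8, 44.8 and 52.8 in SMYD3 CL5, without overlap in either line. It rose by 1.596 (SE 0.26, adjusted p = 0.039). Chrna1, the alpha subunit and best expressed member, was at 172, 234, 312 and 453 CPM in Ctrl vector and at 355, 465, 539 and 772 in SMYD3 CL5, a change of 0.78 that did not pass (adjusted p = 0.148). The 17 muscle energy genes had a median of 0.29 with none past the threshold. In the 7 libraries the median was 0.86 over these 17 genes and 0.49 over the 18 tested there. The muscle creatine kinase gene Ckm was at 0 and 0.0227 CPM at 0 h and 0.463 and 1.39 at 24 h in Ctrl vector. In SMYD3 CL5 it was at 1.45, 9.65, 20.1 and 30, and its change of 2.85 did not pass in the 8 libraries (adjusted p = 0.151). The change was 4.34 in the 7 libraries.

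**Figure D3:**
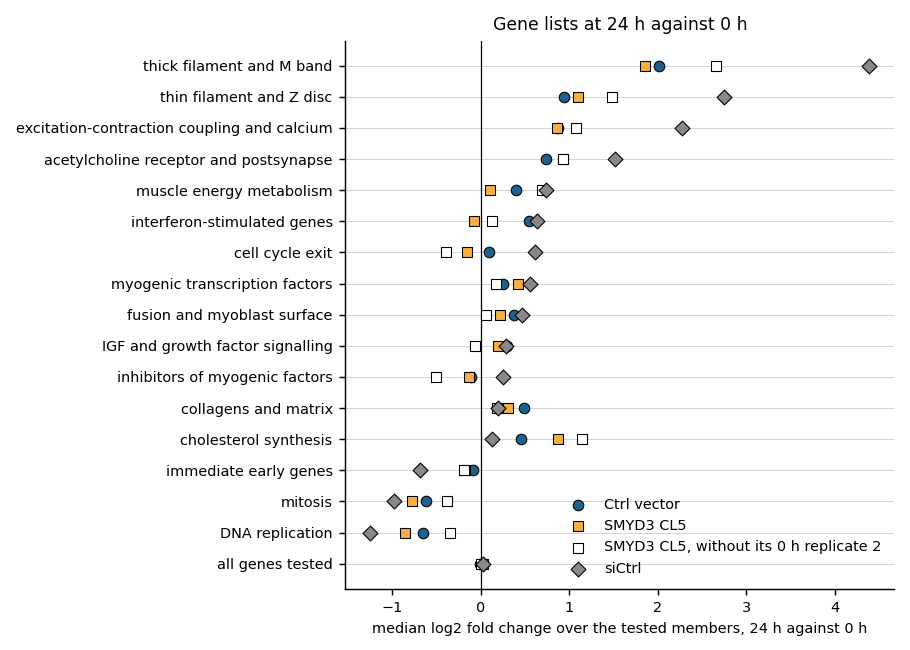
Median log2 fold change at 24 h against 0 h (x axis) over the tested members of 16 gene lists and over all genes (y axis), for Ctrl vector, SMYD3 CL5 with and without its 0 h replicate 2, and siCtrl. The thick filament list has medians of 2.01 in Ctrl vector, 1.85 in SMYD3 CL5 and 4.39 in siCtrl, and the DNA replication list has -0.65, -0.85 and -1.24. Where symbols coincide the later one covers the earlier one.

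Proliferation genes were lower at 24 h as a group, though few passed alone. All 37 DNA replication genes and all 37 mitosis genes had a change below 0, with medians of -0.71 and -0.68. Of them, 32 and 31 were lower at 24 h without overlap in both lines, as were 6% of all tested genes. One of the first list fell, Rrm2, a subunit of ribonucleotide reductase that makes deoxynucleotides, and none of the second. Rrm2 was at 278 and 288 CPM at 0 h and 149 and 152 at 24 h in Ctrl vector, and at 146, 173, 94.3 and 80.3 in SMYD3 CL5, a fall by 0.90 (SE 0.14, adjusted p = 0.0328). In siCtrl 36 of 37 fell under 0.01 in each list, as did 14.8% of all genes tested there.

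The summed DNA replication level was 3183 and 3472 CPM at 0 h and 2187 and 2201 at 24 h in Ctrl vector. In SMYD3 CL5 it was 2059 and 3607 at 0 h and 1788 and 1499 at 24 h, so that replicate 1 at 0 h lay below Ctrl vector at 24 h. Without replicate 2 the SMYD3 CL5 median was -0.35 rather than -0.85, and the median over both lines -0.52, with -0.54 for mitosis. The replication factor Mcm3 was the plainest case, at 77.4 and 195.5 CPM in the SMYD3 CL5 0 h replicates and 70.2 and 65.6 at 24 h. Of 16 tested cell cycle exit genes 1 rose, the stress-inducible Gadd45a, by 1.59 (SE 0.22, adjusted p = 0.0269), from 12.1 and 13.1 to 41.3 and 38.7 CPM in Ctrl vector and from 33.5 and 31.9 to 60.4 and 128 in SMYD3 CL5. Cdkn1a, the cyclin kinase inhibitor p21, was at 210.5, 268, 233 and 365 CPM in Ctrl vector and at 263, 349, 348 and 307 in SMYD3 CL5, and its change of 0.20 did not pass (adjusted p = 0.755). In siCtrl it rose by 1.32 (adjusted p = 1.22e-06). The list's median was 0.00, and -0.12 in the 7 libraries.

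Several genes of the extracellular matrix and of secreted factors rose. In the matrix list 37 of 45 tested genes had a change above 0 (median 0.29, and 0.30 in the 7). Of the 45, 13 were higher without overlap in both lines, as were 7.17% of all tested genes, and 3 rose: Dcn, Loxl2 and Ccn3. Dcn, the collagen-binding proteoglycan decorin, was at 7.97 and 3.70 CPM at 0 h and 92.8 and 64.3 at 24 h in Ctrl vector, and at 2.77, 0.812, 10.7 and 16.3 in SMYD3 CL5. It rose by 3.34 (SE 0.44, adjusted p = 0.0244), and Loxl2, which cross-links collagen, by 1.26 (SE 0.16, adjusted p = 0.0227). The rise of Ccn3, a matricellular protein, rests on Ctrl vector (0.915, 0.658, 6.29 and 3.68 CPM), since SMYD3 CL5 held none at 0 h and 0.0343 and 0.0903 CPM at 24 h. Fn1, fibronectin and the best expressed member, was at 6298, 6462, 17430 and 14890 CPM in Ctrl vector and at 8647, 4615, 16250 and 11700 in SMYD3 CL5 (change 1.20, adjusted p = 0.089).

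Outside the lists, Adamts17, a secreted protease, was at 0.206 and 0.136 CPM at 0 h and 2.23 and 2.89 at 24 h in Ctrl vector, and at 0.295, 0.355, 7.43 and 18.3 in SMYD3 CL5, and rose by 4.68 (SE 0.45, adjusted p = 0.0113). Itga10, a collagen-binding integrin, was at 2.95, 2.34, 22.1 and 12.3 CPM in Ctrl vector and at 7.17, 6.75, 95.9 and 69 in SMYD3 CL5, and rose by 3.14 (SE 0.29, adjusted p = 0.0103). An exon it shares with a gene on the same strand makes its count uncertain. Angpt4, an angiopoietin, was at 5.13, 5.99, 40.5 and 36 CPM in Ctrl vector and at 11.2, 11.3, 34.1 and 37.7 in SMYD3 CL5, and rose by 2.21 (SE 0.24, adjusted p = 0.0129). Sema3c, a semaphorin, rose by 2.41 (adjusted p = 0.0232), Dll1, a Notch ligand, by 2.37 (adjusted p = 0.0266), and Spry1, a brake on growth factor receptors, by 2.51 (adjusted p = 0.0227).

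Among 27 tested genes of IGF and growth factor signalling 1 rose and 1 fell, with a median of 0.32 in the 8 libraries and 0.075 in the 7. Igf1, the growth factor ligand, was at 0.295, 0.249, 2.42 and 2.61 CPM in Ctrl vector and at 1.20, 1.40, 4.89 and 3.52 in SMYD3 CL5, and rose by 2.37 (SE 0.35, adjusted p = 0.032). Ngfr, a neurotrophin receptor, was at 10.4, 8.03, 2.86 and 3.20 CPM in Ctrl vector and at 1.35, 2.59, 0.446 and 0.316 in SMYD3 CL5, and fell by 1.92 (SE 0.29, adjusted p = 0.0325). All 22 cholesterol synthesis genes had a change above 0, with a median of 0.70 (0.74 in the 7), but none passed. Of them, 10 were higher without overlap in both lines, as were 7.17% of all tested genes. Cyp51, a demethylase of that pathway, was at 90.4, 136, 172 and 212 CPM in Ctrl vector and at 88, 111, 194 and 428 in SMYD3 CL5 (change 1.19, adjusted p = 0.14). In siCtrl none of the 22 rose or fell under 0.01, where 14.6% of all genes rose and 14.8% fell, and the median was 0.13. The TRIzol and NucleoSpin libraries, which also differ in passage, moved in opposite directions there. The summed level of the list was 1795 CPM at 0 h and 2806 at 24 h in the TRIzol libraries. In the NucleoSpin libraries it was 3551 and 3748 at 0 h and 3276 and 3487 at 24 h, a contrast that was not tested. Of 24 immediate early genes none passed (median -0.04, and -0.14 in the 7). Of 25 interferon-stimulated genes 1 rose, with a median of 0.25 in the 8 libraries and 0.36 in the 7. In Ctrl vector 24 of the 25 had a change above 0 (median 0.54), and in SMYD3 CL5 12 did (median -0.07), a difference that was not tested for the list. The 1 was Gbp2, a guanylate-binding protein, at 1.33, 2.04, 5.28 and 5.22 CPM in Ctrl vector and at 0.81, 0.609, 2.02 and 1.99 in SMYD3 CL5, which rose by 1.56 (adjusted p = 0.0343).

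**Figure D4:**
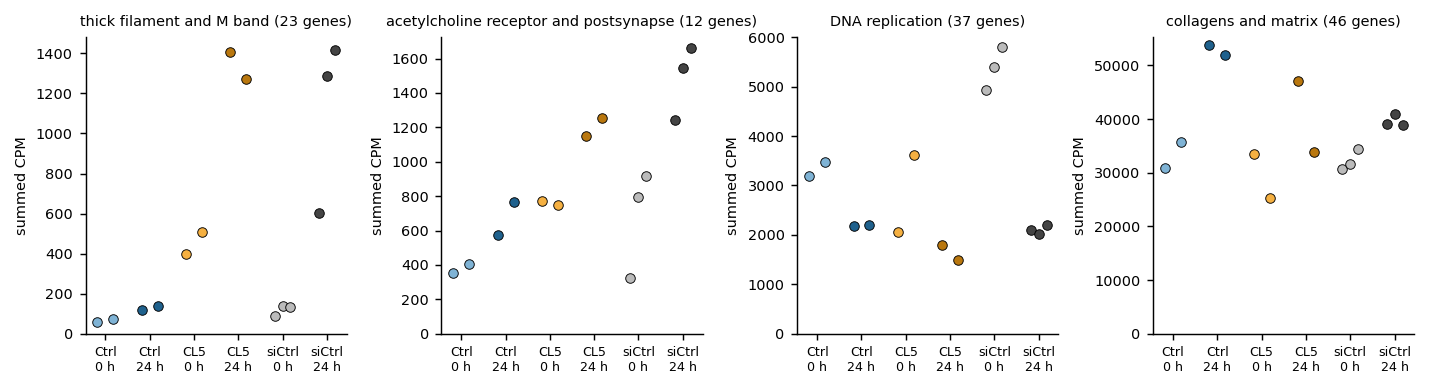
Summed CPM (y axes, from 0) of 4 gene lists in each library (points) of Ctrl vector, SMYD3 CL5 and siCtrl at 0 h and 24 h. The thick filament list sums to 59.7 to 140 CPM in Ctrl vector and 396 to 1409 in SMYD3 CL5, and DNA replication is lower at 24 h in every group.

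Markers of other cell types were present at unequal levels. The 6 endothelial markers summed to 0.279 to 1.04 CPM over the 8 libraries, the 7 blood and macrophage markers to 3.62 to 17.9, and the 6 neuron and glia markers to 4.42 to 13.5. Bone and cartilage markers summed to 40.8 to 76.7 CPM, almost all from Runx2, and adipocyte markers to 25.5 to 100.4, mostly from Lpl and Pparg, against 59.7 and 73.3 for the thick filament list of Ctrl vector at 0 h. Lep, Cfd, Ibsp and Adgre1 had no count in any of the 8 libraries, and no member of the 5 lists passed. Medians of their changes were -0.98 for the 3 tested adipocyte genes, -1.21 for 6 of bone and cartilage, 0.79 for 2 of endothelium, -0.52 for 4 of blood and 0.04 for 4 of neuron and glia. Their part in the other results was not tested.

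Some promoters are shown for their E-boxes, the elements through which myogenic factors and the Id proteins' partners act. Of the genes shown, Myog did not pass in the 8 libraries, and the others rose or fell. Each stretch is the 200 bases before the RefSeq start (GRCm38.p6), 5′ to 3′ on the gene's strand, with E-boxes (CANNTG) in capitals. Myog and Myh3 stand for the muscle program, Klhl41 for a muscle gene with 3 E-boxes, Angpt4 for the secreted factors, and Krt13 for the falls. RefSeq promoters of Id1 and Mymk were not used here.
Myog (chr1:134289804-134290003, plus strand): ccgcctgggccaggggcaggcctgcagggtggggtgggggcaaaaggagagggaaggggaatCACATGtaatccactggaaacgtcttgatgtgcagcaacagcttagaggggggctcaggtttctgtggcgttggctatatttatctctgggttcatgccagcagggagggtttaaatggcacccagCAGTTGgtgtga
Klhl41 (chr2:69669920-69670119, plus strand): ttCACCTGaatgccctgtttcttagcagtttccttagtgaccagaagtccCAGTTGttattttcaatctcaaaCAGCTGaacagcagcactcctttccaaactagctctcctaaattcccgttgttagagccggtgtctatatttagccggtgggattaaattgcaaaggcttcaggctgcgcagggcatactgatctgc
Myh3 (chr11:67078100-67078299, plus strand): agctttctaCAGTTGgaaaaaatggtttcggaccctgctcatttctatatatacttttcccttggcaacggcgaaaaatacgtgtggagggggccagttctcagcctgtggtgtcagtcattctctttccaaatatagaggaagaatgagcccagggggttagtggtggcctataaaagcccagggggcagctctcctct
Angpt4 (chr2:151911007-151911206, plus strand): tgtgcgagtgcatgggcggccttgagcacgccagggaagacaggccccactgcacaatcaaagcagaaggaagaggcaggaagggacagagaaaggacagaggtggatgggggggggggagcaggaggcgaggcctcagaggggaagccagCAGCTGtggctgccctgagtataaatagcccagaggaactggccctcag
Krt13 (chr11:100121567-100121766, minus strand): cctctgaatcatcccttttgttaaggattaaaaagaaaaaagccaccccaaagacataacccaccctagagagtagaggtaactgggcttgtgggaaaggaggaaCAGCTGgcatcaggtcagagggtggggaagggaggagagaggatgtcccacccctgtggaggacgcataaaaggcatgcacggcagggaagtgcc

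The Myog E-boxes begin 138 and 12 bases before the start, and those of Klhl41 at 198, 150 and 127. In windows of 250 bases before to 50 after the start, searched on both strands, CANNTG was held by 63.7% of the 11145 tested genes with a promoter, by 76.4% of 55 that rose and 84% of 25 that fell. Its form CAGCTG, which CANNTG includes, was held by 15.4% of all, 36.4% of the rises and 28% of the falls. CCAAT was held by 38.9%, 41.8% and 60%, and TTTGAA by 12.1%, 10.9% and 20%. These shares are descriptions of letters in a window and were not tested.

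Whether the response differed between the lines was asked by the difference of their changes. This difference and the change of each line alone were contrasts in a fit of 4 groups over all 8 libraries. In that fit all groups share the same estimate of a gene's spread. The SMYD3 CL5 0 h replicates, which lay far apart, thus enter the spread used for Ctrl vector as well. For the difference none of 17835 genes passed 0.01 or 0.05 in edgeR, with 312 at an unadjusted p under 0.05, and DESeq2 called 2 at 0.01. With 2 libraries per group and this spread, the test could miss differences. These counts therefore do not show that the lines responded alike. For the change in Ctrl vector 0 genes passed 0.01 (DESeq2 119, and 1256 at an unadjusted p under 0.05) and 2 passed 0.05, Angpt4 and Dpt. For the change in SMYD3 CL5 none passed either threshold (DESeq2 109 at 0.01, and 1137 at an unadjusted p under 0.05). Dpt, which encodes the matrix protein dermatopontin, was at 1.36 and 1.07 CPM at 0 h and 15.8 and 20.5 at 24 h in Ctrl vector, but at 0.417, 0.533, 0.738 and 0.632 in SMYD3 CL5. The changes of single genes correlated between the lines at 0.382 (Pearson) and 0.33 (Spearman) over 17835 genes, which are not independent replicates, and at 0.3 and 0.2 in the 7 libraries.

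The levels of the lines are given for some genes and a list, with no test between the lines. Ryr1, a calcium release channel, was at 2.06 and 1.38 CPM at 0 h and 5.99 and 4.08 at 24 h in Ctrl vector. In SMYD3 CL5 it was at 45.9, 41.4, 102 and 61.2. Ryr3, of the same list, went the other way. Its means at 0 h and 24 h were 15.3 and 21.6 CPM in Ctrl vector and 0.648 and 0.954 in SMYD3 CL5. The summed thick filament level was 59.7 and 73.3 CPM at 0 h and 118 and 140 at 24 h in Ctrl vector, and 396, 508, 1409 and 1274 in SMYD3 CL5. In siCtrl it was 86, 137 and 136 at 0 h and 602, 1288 and 1415 at 24 h. SMYD3 CL5 thus began above Ctrl vector at 24 h and ended in the range of siCtrl at 24 h, where the siCtrl library from TRIzol was the low one. In bulk RNA a larger share of differentiated cells and more RNA per cell cannot be told apart.

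The same time step in siCtrl passed 0.01 for 2309 rises (14.6% of 15820) and 2346 falls (14.8%), in a fit of the 18 siRNA libraries with extraction method as covariate. No library is shared between the comparisons. Of the 78 rises in the vector lines 74 were tested in siCtrl, where 67 rose under 0.01 and none fell. Of the 34 falls all were tested, 27 fell and none rose. The 78 rises had medians of 1.65 in Ctrl vector, 1.67 in SMYD3 CL5 and 1.84 in siCtrl, and the 34 falls -1.54, -1.595 and -1.50. These genes were chosen by their values in the vector lines, which favours large changes shared by both lines. The closeness of these medians is therefore a description only. Ddit4, a stress-induced inhibitor of mTOR, fell by 1.04 in the lines (adjusted p = 0.0408) and changed by 0.96 in siCtrl (adjusted p = 0.0548), a difference of -1.99 (adjusted p = 0.0445). For Efnb2, an ephrin ligand, which rose by 1.39 in the lines (adjusted p = 0.0364) and changed by 0.48 in siCtrl (adjusted p = 0.129), the difference did not pass (0.94, adjusted p = 0.177).

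Read the other way, of the siCtrl changes tested here 67 of 2263 rises and 27 of 2343 falls passed 0.05 in the lines. Of those 2263 rises, 89.79% had a change above 0 in the fit of both lines, with a median of 0.34 against 0.89 in siCtrl. Of all genes tested in both fits 49.82% were above 0. For the 374 that rose by more than 2 in siCtrl the medians were 1.08 and 2.75, and 46.79% were higher in both lines without overlap, against 7.418% of all genes. Of the 2343 falls 9.56% were above 0, with medians of -0.32 and -0.67. The medians of the siCtrl rises were 0.41 in Ctrl vector and 0.26 in SMYD3 CL5, and 0.30 over both lines in the 7 libraries. Over 15598 genes the change in both lines correlated with that in siCtrl at 0.656 (Pearson) and 0.592 (Spearman), at 0.658 and 0.611 for Ctrl vector and 0.464 and 0.393 for SMYD3 CL5. These sets were chosen by their siCtrl values, so the sizes are a description.

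**Figure D5:**
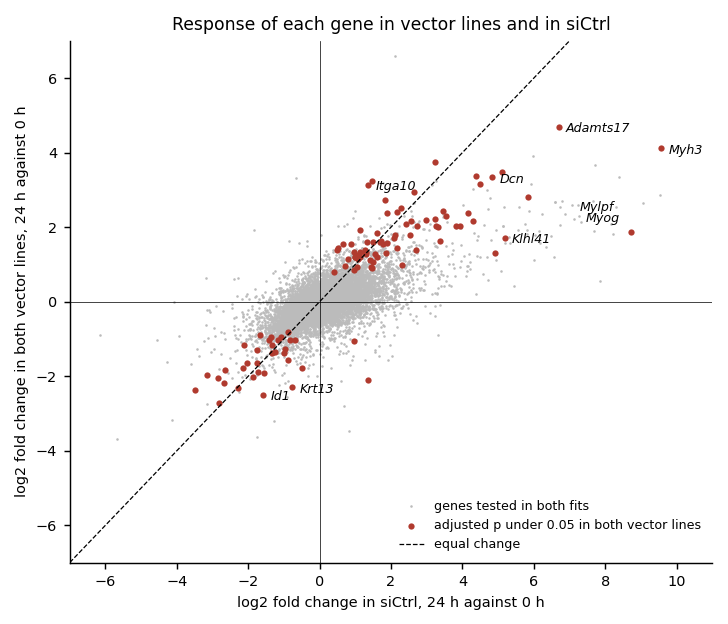
Log2 fold change at 24 h against 0 h of each of 15598 genes in siCtrl (x axis) and in both vector lines (y axis). Red points are genes under 0.05 in the vector lines, and the dashed line marks equal change. Muscle genes such as Myh3 (9.57 in siCtrl and 4.12 in the lines) and Klhl41 (5.18 and 1.72) lie to the right, under the dashed line, while Krt13 (-0.76 and -2.30) and Itga10 (1.35 and 3.14) lie farther from 0 in the lines than in siCtrl.

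The difference of the change between the vector lines and siCtrl was tested over 14 libraries, and 11 of 17856 genes (0.0616%) passed 0.01, 9 lower in the lines and 2 higher. The 9 included the muscle genes Hrc, Klhl41, Ryr1 and Myom1. Hrc, a calcium-binding protein of the sarcoplasmic reticulum, was at 0.206, 0.386, 0.673 and 0.845 CPM in Ctrl vector, at 4.17, 9.62, 18.9 and 21.9 in SMYD3 CL5, and at 0.348, 0.198, 0.207, 11.6, 21.4 and 26 in siCtrl. Its change was lower by 4.83 in the lines (SE 0.56, adjusted p = 0.00535). Myom1, myomesin of the M band, was at 1.21, 1.32, 2.40 and 2.76 CPM in Ctrl vector, at 15.7, 12.2, 25.7 and 21.6 in SMYD3 CL5, and at 0.464, 0.791, 0.527, 4.96, 12.3 and 14.8 in siCtrl, with a difference of -3.23 (SE 0.33, adjusted p = 0.00212). In both genes Ctrl vector at 24 h lay below siCtrl at 24 h, and SMYD3 CL5 at 0 h above siCtrl at 0 h.

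Hmga2, an architectural chromatin protein, fell in siCtrl from 133, 174 and 144 to 23.6, 30.6 and 29.9 CPM, but stood at 146, 160, 157 and 95.5 in Ctrl vector and at 80.8, 78.5, 50.6 and 56.2 in SMYD3 CL5 (difference 2.00, SE 0.24, adjusted p = 0.00535). Slpi, a secreted protease inhibitor, had a difference of 2.33 (SE 0.27, adjusted p = 0.00535). The vector, the cloning and the transfection go with this comparison and cannot be told apart, and siCtrl mixes TRIzol and NucleoSpin libraries. With the TRIzol libraries alone, and so 1 siCtrl library per time, 0 genes passed 0.01 in edgeR and 672 had an unadjusted p under 0.05, while DESeq2 on all 14 libraries called 317. Without the SMYD3 CL5 0 h replicate 2, 371 genes passed, 207 higher and 164 lower in the lines.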

How the data were processed

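Poly(A) RNA of C2C12 cells was sequenced as paired-end stranded libraries. Raw read counts per gene were deposited by the authors, who per the labels and methods used FastQC 0.11.5, HISAT2 2.1.0 on GRCm38 and featureCounts of Subread 1.6.3. The strand setting and the treatment of reads with several matches are not given in the sources used here, so genes with overlapping exons are uncertain (34 of 122 named genes on the opposite strand, 7 on the same). Groups came from the sample labels, replicates from separate libraries.

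The 8 vector-line libraries (21124675 to 67853386 counts) were tested by edgeR 4.0.16 quasi-likelihood (R 4.3.3, TMM, filterByExpr, robust) with line and time as terms and Benjamini-Hochberg adjustment at 0.01, the study's threshold, and 0.05. The siCtrl step was fitted over the 18 siRNA libraries with extraction as a term, and the difference from siCtrl over 14 libraries. The siCtrl replicate numbers were taken from the study's list. Deviations from the group means correlated at 0.319, 0.469 and 0.649 between same-numbered libraries, which also share the extraction method. These correlations therefore cannot show whether the cultures were paired. Blocking on the numbers gave 4457 calls against 4655. Alternatives were DESeq2 1.42.0, limma 3.58.1 voom with library weights, other scaling and filters, a replicate block and leaving out each library. The scripts were tested on simulated data.

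Named genes were, past 0.01, the 12 largest changes each way with at least 100 mean counts and no overlap in either line, of each list the 3 highest per kilobase and up to 4 that passed, every myogenic factor, the 5 largest differences each way between the lines or from siCtrl, and Smyd3. A few genes that the rule names are not reported here. Members and lists were chosen with earlier results of these data known. Levels at or under 3 counts were taken as a floor, and 95% intervals are exact and cover counting error only. Genes were located in GENCODE M21, which lists 54409 of the 55341 genes, and promoters came from RefSeq, with an entry for 11145 of 17835 tested genes.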

Additional observations from a re-analysis of the deposited data

Results flagged for a closer look

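The change at 24 h differed between the vector lines and siCtrl for 11 genes at an adjusted p under 0.01 in edgeR's quasi-likelihood test, given here as the log2 fold change in the lines minus that in siCtrl. Differences below 0 were found, among others, for Hrc (-4.83, adjusted p = 0.00535), Mir351 (-4.09), Gm28653 (-3.58), Parm1 (-3.52), Klhl41 (-3.45), Ryr1 (-3.42) and Myom1 (-3.23). Differences above 0 were found for Slpi (2.33) and Hmga2 (2.00). The fitted value of Mir351 depends on the prior count, since siCtrl held at most 3 counts of it per library at 0 h, and its summed counts in siCtrl were 28 times higher at 24 h (95% interval 12.4 to 78). Gm28653 shares exon positions with 2 genes on the same strand. Parm1 stood at 0.18 to 0.708 CPM in all 8 vector-line libraries, and at 6.72, 1.30 and 1.56 CPM at 0 h and 68.1, 10.8 and 14.2 at 24 h in siCtrl, where the TRIzol library was the high one. The part of the extraction method, or of the passage that goes with it, in these differences was not tested.

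In 2 myogenic transcription factors every 24 h library lay on one side of the 0 h libraries in Ctrl vector and on the other side in SMYD3 CL5. Myf5, an early myogenic factor, was at 62.1 and 78.2 CPM at 0 h and 40.6 and 54.7 at 24 h in Ctrl vector, and at 13.6, 9.14, 15.6 and 35.4 in SMYD3 CL5, a difference of 1.76 on the log2 scale. Tead4, a partner of YAP, was at 13.5, 15.5, 12.7 and 12.8 CPM in Ctrl vector and at 7.12, 8.53, 14.4 and 12 in SMYD3 CL5, a difference of 0.99. Neither difference passed in the fit over all genes (adjusted p = 0.9998 for both), and no other test of them was made.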

How the results depend on the processing

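The number of genes called between 0 h and 24 h moved with most alternatives. Of 1707 values of named genes under the alternatives run, 1341 stayed on their side of the threshold, 162 passed it and 204 no longer did. The sign changed in 48 values of 22 genes, in none of them where the gene was past the threshold in either fit. Of both lines, 2 genes passed 0.01, against 112 at 0.05, 0 with the mean of both lines in a fit of 4 groups, 459 in DESeq2, 633 without the filter, 767 with all 26 libraries and 909 with voom and library weights. At 0.05 the same alternatives gave 52, 782, 1046, 1762 and 2685 in place of 112. With the replicate block 21 genes passed 0.01 and 185 passed 0.05, but same-numbered libraries correlated at -0.094 to 0.484 and share only a number. Leaving out a library gave 0 to 104 calls at 0.01 and 0 to 470 at 0.05: 470 and 444 without the SMYD3 CL5 0 h replicates 1 and 2, 17 and 6 without those at 24 h, 4 and 1 without those of Ctrl vector at 0 h, and 0 and 1 without those at 24 h. At 0.01, 11 and 104 passed without the SMYD3 CL5 0 h replicates 1 and 2. The cause was not tested.

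For Ctrl vector alone DESeq2 called 119, the fit without the filter 203 and the 0.05 threshold 2, with 0 to 24 over left-out libraries, the most without SMYD3 CL5 0 h replicate 2. For SMYD3 CL5 alone they were 109 in DESeq2 and 216 without the filter, with 0 to 1037, the most without 0 h replicate 1. The difference between the lines gave 2 in DESeq2 and 12 without the filter. In siCtrl 1676 passed without the extraction term, and 3583 to 3904 over left-out libraries. The difference from siCtrl gave 317 in DESeq2, 275 without the filter, 24 with voom, 146 with all 26 libraries, 63 at 0.05 and 0 with TRIzol libraries only. It ran from 0 (without siCtrl 0 h replicate 2 or 3, or 24 h replicate 3) to 371, with 282 without SMYD3 CL5 0 h replicate 1.

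Of list medians, 289 moved by less than the replicate spread and 19 by more. With voom they were 0.112 for inhibitors, -1.035 for bone and cartilage (-1.038 with all 26 libraries), 0.418 for endothelium and 0.737 for myoblast markers. Over left-out libraries they ran from 0.086 to 0.522 for myogenic factors, -0.36 to 0.02 for inhibitors, 0.241 to 0.443 for matrix, -1.284 to -1.068 for bone and cartilage, 0.525 to 1.063 for endothelium and 0.159 to 0.795 for myoblast markers.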
